A study of Mus musculus with 3 samples.

Results

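SRF binding was examined at 9 genes of LIM domain proteins that work on the actin cytoskeleton: Pdlim1, Pdlim2, Pdlim5, Pdlim7, Fhl1, Fhl2, Fhl3, Lasp1 and Lima1. Every merged SRF region that the authors assigned to one of them was taken, which gave 30 of the 31850 regions in the deposited data, and all 9 genes were among the 16697 genes with an assigned interval. The data are chromatin immunoprecipitation sequencing (ChIP-seq) of SRF, the serum response factor, in whole cornea of untreated mice aged about 8 weeks, on a mixed strain background. A library came from Dstn-corn1 mutant mice, whose mutation affects destrin, an actin-depolymerizing protein, and another from wildtype mice. The sources used here do not say how many mice went into a library, and the input library, made without antibody, was not analysed. With 1 library for each genotype there was no replicate error to test against, so differences are described without p-values. The growth notes in the labels name mutant mice for every library, and genotype was taken from the titles. At Dstn itself all 3 regions were listed at 0 in mutant, against heights of 11 to 35 in wildtype. The lowest mutant height at a member region was 6. What lies behind the values of 0 was not tested, and they are not read here as lost SRF binding. ChIP-seq heights do not show from which corneal cells a signal came.

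LIM domains are zinc-binding modules through which proteins dock onto each other. Proteins of the PDZ-LIM family (Pdlim genes) add a PDZ domain, which ties them to alpha-actinin on stress fibres. The Fhl proteins consist of LIM domains alone and act both at adhesions and as transcriptional cofactors. Lasp1 joins a LIM domain to nebulin repeats and an SH3 domain, and Lima1 encodes EPLIN, which bundles and stabilizes filaments. SRF binds a short A/T-rich sequence called the CArG box. Its MRTF cofactors are held back by monomeric actin, which links SRF to the state of the actin cytoskeleton that these genes help to build.

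Which starts carried SRF signal is best seen beside their sequence. RefSeq promoter windows (GRCm38.p6, the same assembly as the mm10 build of the files), each 250 bases before and 50 after a transcript start, were listed for 8 of the 9 genes, all but Pdlim2, with 11 windows in all. A member region overlapped 4 of the 11 windows, those of Fhl2, Lima1, Pdlim5 and Pdlim7. The first set below holds the windows that had both a region and a CArG box. Each line is the 250 bases before the start, 5′ to 3′ on the gene's strand, with the CArG box in capitals.
Fhl2 start, chr1:43163962-43164211, minus strand: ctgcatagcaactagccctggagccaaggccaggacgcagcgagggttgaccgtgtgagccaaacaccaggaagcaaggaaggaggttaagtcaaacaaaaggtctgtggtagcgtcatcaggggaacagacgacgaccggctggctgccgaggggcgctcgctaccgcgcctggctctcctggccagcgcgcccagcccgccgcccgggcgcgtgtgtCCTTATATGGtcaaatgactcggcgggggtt
Lima1 internal start, chr15:99820150-99820399, minus strand: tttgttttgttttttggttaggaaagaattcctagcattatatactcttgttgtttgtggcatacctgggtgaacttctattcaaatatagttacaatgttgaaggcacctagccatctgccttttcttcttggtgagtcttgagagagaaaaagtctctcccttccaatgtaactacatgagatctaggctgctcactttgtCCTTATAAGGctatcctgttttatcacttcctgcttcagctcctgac

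Windows with a CArG box over which no member region lay are shown next, for contrast. They belong to a start of Fhl2 upstream of the one the authors used, and to a start of Fhl1 inside the gene as the authors drew it.
Fhl2 upstream start, chr1:43196762-43197011, minus strand: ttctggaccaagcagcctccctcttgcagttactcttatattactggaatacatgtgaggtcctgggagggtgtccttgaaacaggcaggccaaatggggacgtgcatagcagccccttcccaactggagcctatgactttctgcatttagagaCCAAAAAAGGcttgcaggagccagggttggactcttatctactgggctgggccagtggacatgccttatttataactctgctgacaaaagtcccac
Fhl1, chrX:56779433-56779682, plus strand: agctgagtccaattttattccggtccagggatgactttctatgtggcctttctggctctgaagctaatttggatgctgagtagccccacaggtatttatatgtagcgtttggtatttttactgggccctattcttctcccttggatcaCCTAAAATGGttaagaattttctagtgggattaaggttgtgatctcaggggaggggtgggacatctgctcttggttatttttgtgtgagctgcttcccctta

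The last set holds the windows with a region and no CArG box, those of Pdlim5 and Pdlim7.
Pdlim5, chr3:142395697-142395946, minus strand: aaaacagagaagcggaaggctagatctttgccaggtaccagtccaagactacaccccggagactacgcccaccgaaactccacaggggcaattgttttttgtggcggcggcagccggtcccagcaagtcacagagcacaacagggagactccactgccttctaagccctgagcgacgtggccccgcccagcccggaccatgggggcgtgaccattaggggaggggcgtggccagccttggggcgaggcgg
Pdlim7, chr13:55513447-55513696, minus strand: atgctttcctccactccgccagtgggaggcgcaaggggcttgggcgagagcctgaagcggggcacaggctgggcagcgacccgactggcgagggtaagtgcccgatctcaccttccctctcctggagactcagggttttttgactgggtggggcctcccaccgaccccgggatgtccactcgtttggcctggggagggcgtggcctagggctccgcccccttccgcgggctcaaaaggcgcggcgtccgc

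The CArG box was searched on both strands, as were the letters GGAATG (TEAD factors), CCGGAA (ETS factors) and TGANTCA (AP-1). A CArG box was in 4 of the 11 member windows, from 3 genes (Fhl1, Fhl2 and Lima1), whereas 1.63% of all 32851 RefSeq windows held one. With 1 mismatch allowed in the outer 4 letters the member count was again 4 windows, against 13.9% of all windows. GGAATG and TGANTCA were in 0 member windows, against 14.7% and 7.81% of all windows. CCGGAA was in 1, the Fhl1 window that also holds the CArG box, against 14.9%. A match says only that the letters are there, and a window without one says nothing about sequence outside it.

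At the start of Fhl2, whose LIM-only protein is a cofactor of several transcription factors, the SRF height was 19 in mutant and 6 in wildtype. A height is the authors' peak value, the highest signal within a region. Mutant is the higher of the 2, and only the mutant library had an interval called there (the lowest height of any called interval was 9 in each library). The log2 ratio of mutant over wildtype, after adding 1 to each height, was 1.51. The region, chr1:43163647-43164256, is centred 10 bp inside the gene and overlaps a CpG island. Its mutant summit lay 23 bases before the transcript start and inside the CArG box CCTTATATGG, which spans the bases 31 to 22 before the start. Summits were placed in steps, and 99.1% of all of them were multiples of 16 bp, so this position is no finer than a step. At member regions called in both libraries, the 2 summits lay a median of 32 bp apart. The average over the whole region was also higher in mutant, at 8.95 against 4.2 in wildtype.

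The other regions of Fhl2 ran the opposite way. Its highest region, chr1:43139410-43140174, lies 24169 bp into the gene and reached 39 in mutant and 93 in wildtype (log2 ratio -1.23). Both libraries had their summit there at the same listed position. A weak region past the end of the gene, also assigned to AI597479, had 8 in mutant and 16 in wildtype. Within this gene, then, the region over the start was the lowest of the 3 in wildtype and stood between the others in mutant.

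Lima1 had a region over an internal start that was higher in mutant by peak height. EPLIN is made as a longer and a shorter form from separate promoters, and RefSeq lists a window at a start inside the gene, where the authors' annotation has only gene body. The region over it, chr15:99819747-99820521, reached 22 in mutant and 16 in wildtype (log2 ratio 0.44), and was called in both libraries. Its average values lay closer, at 8.71 in mutant and 7.71 in wildtype (log2 ratio 0.16). The mutant summit lay 43 bases before that start, inside the CArG box CCTTATAAGG at bases 47 to 38, and the wildtype summit lay 11 bases before the start, 31.5 bp from the centre of the box. The summit steps of 16 bp, and the median of 32 bp between the libraries' summits at member regions, limit this contrast too. Over all promoter windows with a CArG box, 17 of 69 mutant summits and 19 of 90 wildtype summits lay within 16 bp of its centre. The authors listed this Lima1 region at 55322 bp from their start of the gene, and it overlaps no CpG island. The other regions of Lima1 were lower in mutant. The region at the gene's end and upstream of Cers5, a ceramide synthase gene, had 18 in mutant and 33 in wildtype. The one over the start of Cers5 had 12 in mutant and 21 in wildtype.

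**Figure D1:**
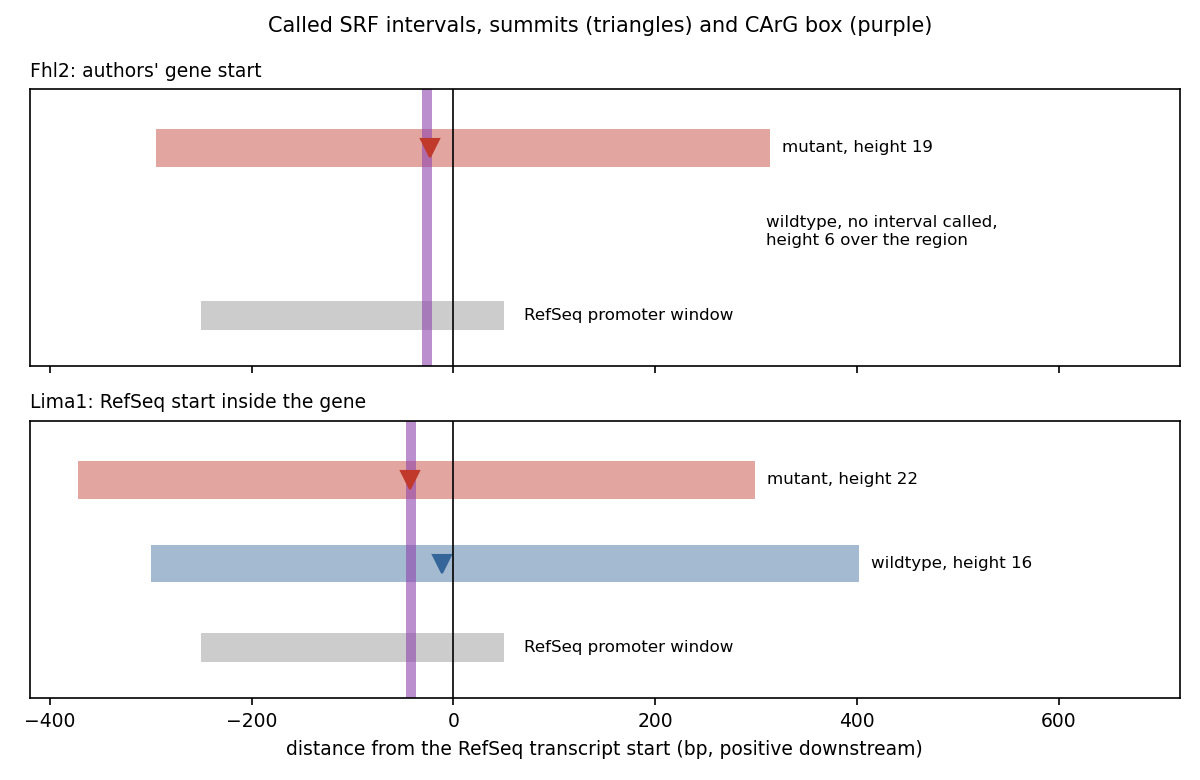
Called SRF intervals of each library (bars, mutant above wildtype) with their summits (triangles) around the RefSeq transcript starts of Fhl2 and Lima1, by distance from the start in bp; the CArG box is purple and the promoter window grey. The mutant summit lies inside the box at both starts, and wildtype has no called interval at Fhl2. Summit positions are good to about a step of 16 bp.

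These values were read against all regions over a RefSeq promoter window. By log2 ratio the Fhl2 start region ranked 1 of the 5799 such regions, and 51 of all 31850 regions. It is among the 219 of the 5799 called in mutant only. It was thus listed only through the library in which it is higher, which partly sets its rank. Among the 7234 regions within 1 kb of a gene start by the authors' distances, some of which lie over no listed window, it ranked 3. The Lima1 region ranked 120 of the 5799. A window with a CArG box lay under 82 of the 5799 regions, and within these the Fhl2 and Lima1 regions ranked 1 and 5. Of the 82 regions, 25.6% had a higher height in mutant, against 7.98% of the 5717 promoter regions without the box. Regions called in mutant only, and so listed through that library alone, were 6 of the 82 and 213 of the 5717. The median log2 ratio was -0.50 with the box (interquartile range -1.0 to 0.05) and -0.80 without it (-1.22 to -0.39). Of the 82 regions, 62 overlapped a CpG island, and the medians with and without the box were -0.48 and -0.76 in CpG islands and -0.68 and -1.03 outside them. With 1 mismatch allowed in the box the difference of medians was 0.045, against 0.30 for the exact box. This comparison was made after the Fhl2 and Lima1 values had been seen, both genes are among the 82, and it was not tested.

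**Figure D2:**
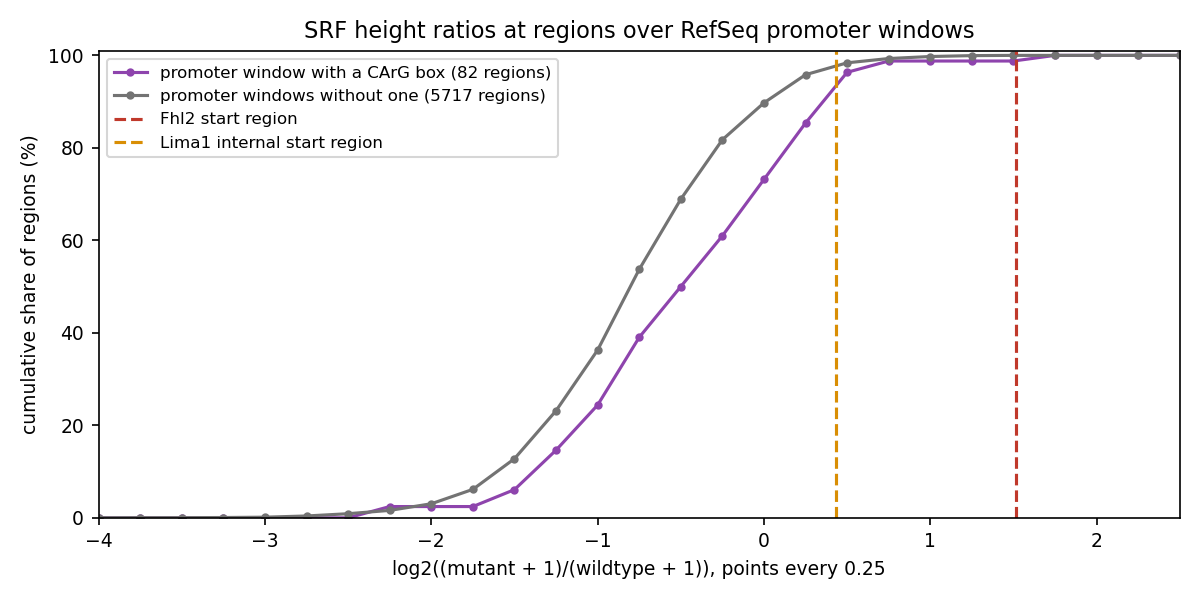
Cumulative share of regions (vertical, in percent) by log2 ratio of mutant over wildtype height (horizontal), for the 82 regions over a promoter window with a CArG box and the 5717 promoter regions without one. The curve with the box lies to the right over most of its range, and the Fhl2 (1.51) and Lima1 (0.44) regions, marked by dashed lines, lie in its upper part.

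Among the PDZ-LIM genes, Pdlim5, which encodes a scaffold for protein kinase C also known as ENH, had the most regions, 6, all inside or at the gene. Its highest region, chr3:142394388-142395346, is centred 829 bp into the gene in a CpG island and reached 45 in mutant and 67 in wildtype (log2 ratio -0.56). The region over the start itself had 13 in mutant and 19 in wildtype (log2 ratio -0.51). A region 36597 bp into the gene had 23 in mutant and 11 in wildtype, a ratio of exactly 2-fold after adding 1, and was called in mutant only. The 3 deepest regions, at 100549, 112751 and 120383 bp, had heights of 18, 17 and 13 in mutant and 37, 36 and 21 in wildtype. All 3 were called in wildtype, but in mutant only the one at 112751 bp was, so height alone did not decide a call. For the region at 120383 bp the average value ran the other way, at 9.0 in mutant and 8.64 in wildtype.

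Pdlim2, whose protein is also known as a nuclear ubiquitin ligase for transcription factors, had its highest region 3476 bp upstream of the start, at chr14:70180569-70181727. It reached 51 in mutant and 128 in wildtype (log2 ratio -1.31), and it lies inside the neighbouring gene Sorbs3, which encodes the adhesion adaptor vinexin. A region inside Pdlim2, 9611 bp from its start, had 41 in mutant and 75 in wildtype. Both downstream regions are also listed under 2610301G19Rik and 9930012K11Rik. The one 23973 bp from the Pdlim2 start had 13 in mutant and 38 in wildtype, and the one 18222 bp from it had 12 in mutant and 17 in wildtype. Pdlim2 thus had no region within 1 kb of its own start.

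Pdlim7, the Enigma gene, had 26 in mutant and 62 in wildtype over its start, at chr13:55512994-55514010, a log2 ratio of -1.22. A region 3685 bp upstream had 22 in mutant and 51 in wildtype, and one 2487 bp into the gene had 6 in mutant and 15 in wildtype. The 3 height ratios lay between -1.18 and -1.22. By average value they were -1.02 at the start, -0.69 upstream and -0.58 inside the gene. Dok3, an adaptor gene of blood cells, shares the first and second of these regions.

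Pdlim1, which encodes the alpha-actinin partner CLP36, had the lowest mean height in mutant of the 9 genes, 7.5, against 26 in wildtype (the authors' deposited gene table). It had no mutant interval. Its regions lay 46002 and 39637 bp into the gene, with heights of 7 and 8 in mutant and 35 and 17 in wildtype. The first of them, at a log2 ratio of -2.17, had the lowest ratio of the 30 member regions. It was listed through wildtype alone, which partly sets this ratio.

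All 3 regions of Fhl3, a LIM-only gene, lie past its end, towards Sf3a3, a splicing factor gene on its downstream side. The highest of the 30 member regions in both libraries was the one over the start of Sf3a3, at chr4:124714362-124715305 and 14134 bp from the start of Fhl3. It reached 54 in mutant and 140 in wildtype (log2 ratio -1.36). The region nearest to Fhl3, 8401 bp from its start, had 21 in mutant and 20 in wildtype, and the one between had 12 in mutant and 26 in wildtype. Fhl1, on the X chromosome, had regions at 24072 and 59694 bp from the authors' start, with heights of 6 and 10 in mutant and 19 and 30 in wildtype. No member region lay over either RefSeq window of Fhl1.

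Lasp1 had a mean height of 10 in mutant and 19 in wildtype, the lowest wildtype mean of the 9 genes (the authors' deposited gene table). Its region 422 bp into the gene had 8 in mutant and 11 in wildtype, and was called in wildtype only. The region 2211 bp into the gene had 12 in mutant and 27 in wildtype, and the one 6241 bp upstream had 14 in mutant and 20 in wildtype. The fourth region, past the end of the gene and also listed under B230217C12Rik, had 6 in mutant and 18 in wildtype.

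**Figure D3:**
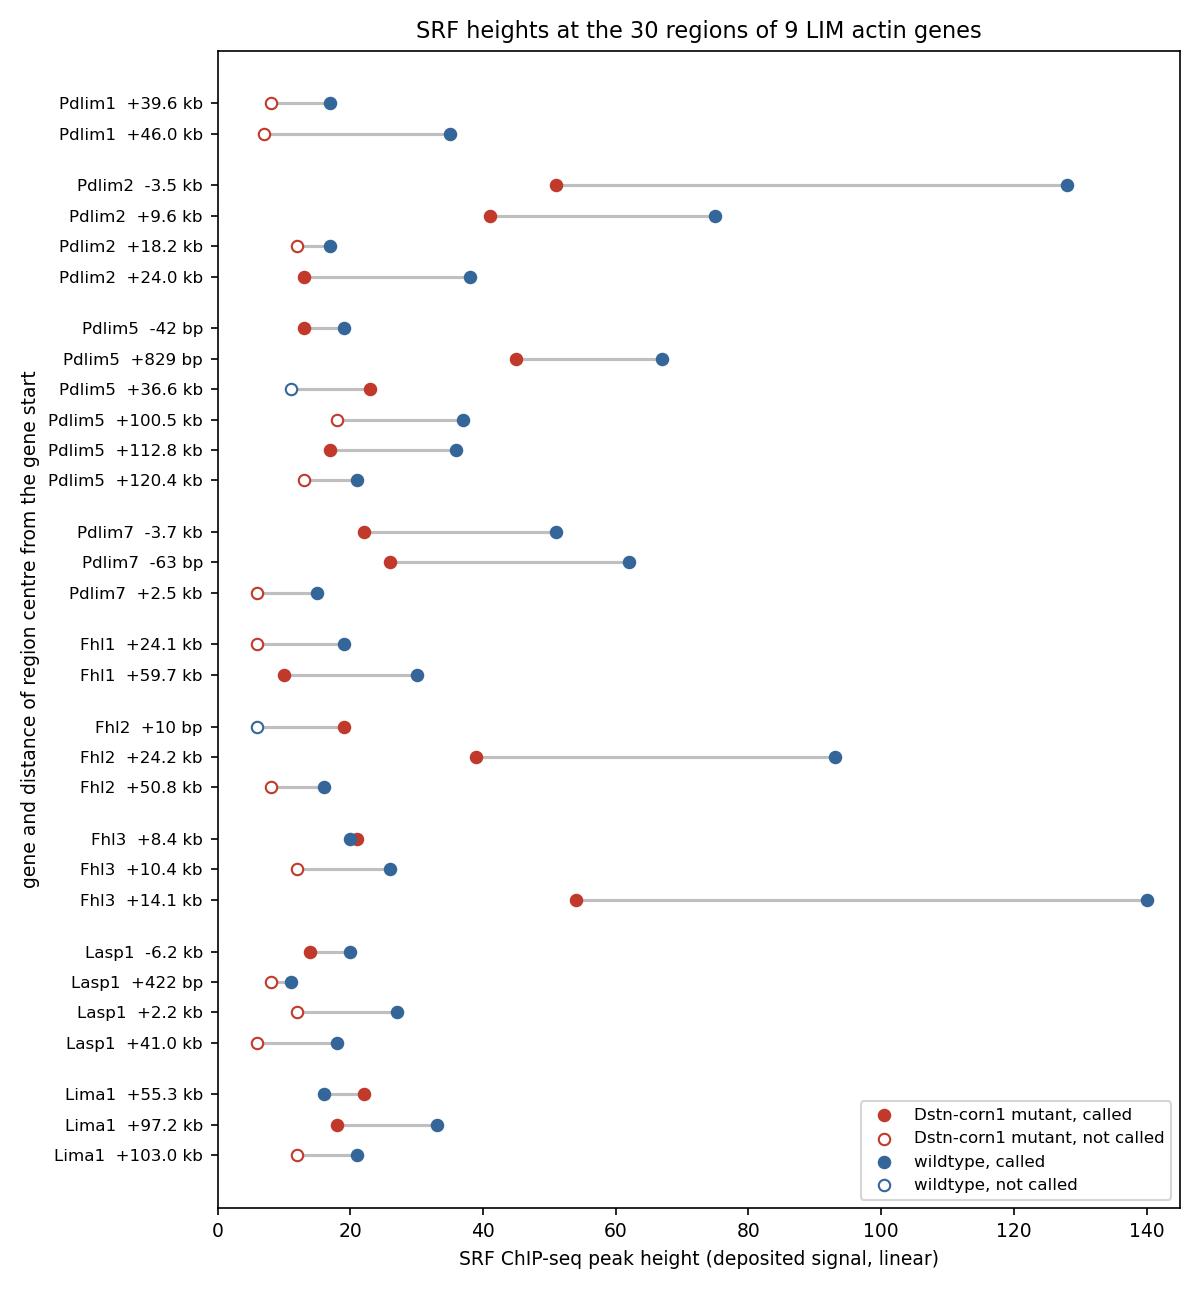
SRF peak heights at all 30 regions of the 9 genes (horizontal, linear signal), labelled by gene and by the distance of the region centre from the authors' gene start; filled points had a called interval in that library. Mutant lies left of wildtype at most regions, and right of it at the Fhl2 start (19 in mutant, 6 in wildtype), the Pdlim5 region 36597 bp into the gene (23 in mutant, 11 in wildtype), the Lima1 internal start (22 in mutant, 16 in wildtype) and, by 1 unit, a Fhl3 region (21 in mutant, 20 in wildtype).

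Over all 30 regions heights ran from 6 to 54 in mutant and from 6 to 140 in wildtype, and the medians were 13.5 in mutant and 23.5 in wildtype, beside 13 in mutant and 28 in wildtype over all 31850 regions. The median log2 ratio was -1.0, beside -1.10 for all regions, and 16 of the 30 were at least 2-fold lower in mutant, beside 59.0% of all regions. Of these 16, 2 lie exactly at the 2-fold threshold. Of the 30, 13 were called in wildtype only, as were 15593 of all 31850 regions. Those 13 were listed only through the library in which they are higher, which partly sets the median and the lower count. The 2 regions at least 2-fold higher in mutant, at the Fhl2 start and inside Pdlim5, stand beside 0.414% of all regions. Both were called in mutant only, as were 670 of all 31850 regions. They were thus listed only through the library in which they are higher, which partly sets this contrast. A higher height in mutant was found at 4 of the 30 (13.3%), beside 3.69% of all regions. An interval was called at 17 of the 30 in mutant and at 28 in wildtype, beside 51.0% of all regions in mutant and 97.9% in wildtype. The 30 regions lie at 9 genes and so are not independent of each other. Heights were lower in mutant at most of the 31850 regions, and no source used here says whether or how the libraries were scaled to each other. The part of such a common factor in these counts was not tested. With mutant heights multiplied by 2.10, both libraries have the same median over the regions called in both. The member median log2 ratio was then 0.01, beside -0.09 for all regions. Counts at least 2-fold lower and higher were 1 and 4, with no share of all regions at this setting beside them.

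**Figure D4:**
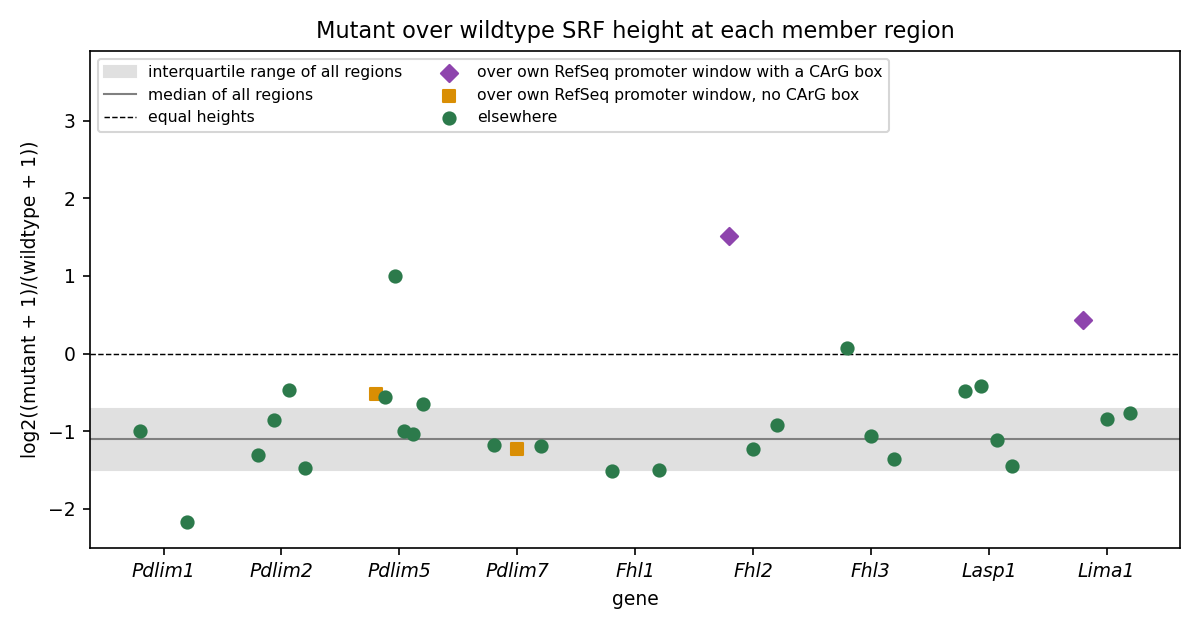
Log2 ratio of mutant over wildtype height (vertical) at each of the 30 member regions, by gene and, within a gene, by position; the grey band is the interquartile range of all 31850 regions. Most member regions lie in or near the band. Farthest above it lie the Fhl2 start (1.51), a Pdlim5 region (1.0), the Lima1 internal start (0.44) and a Fhl3 region (0.07). A Pdlim1 region (-2.17) lies farthest below.

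Ranking each region within its own library removes any common factor between the libraries. The highest member regions stood at like places in both, with percentiles among all regions of 98.8 in mutant and 99.0 in wildtype for the Fhl3 region at Sf3a3, 98.5 in mutant and 98.7 in wildtype for the Pdlim2 region in Sorbs3, and 96.2 in mutant and 97.1 in wildtype for the Fhl2 region inside the gene. The Fhl2 start region was at percentile 71.5 in mutant and 0.298 in wildtype, the Pdlim5 region at 36597 bp at 81.1 in mutant and 2.41 in wildtype, and the Lima1 internal start at 79.1 in mutant and 16.6 in wildtype. The Pdlim1 region at 46002 bp, called in wildtype only, went the other way, at 17.9 in mutant and 62.3 in wildtype. Few regions were uncalled in wildtype, so a region without a wildtype interval ranks near the bottom of that library.

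Of the 30 regions, 16 were in a gene, 5 upstream and 9 downstream of the member, and 14 carried another gene's name as well. A CpG island lay under 9 of the 30, beside 23.0% of all regions, and a RefSeq promoter window of any gene under 6, beside 18.2%. A region within 1 kb of the authors' start was found for 4 of the 9 genes (Fhl2, Lasp1, Pdlim5 and Pdlim7), beside 48.3% of all genes with an interval. The 5 such regions had a median log2 ratio of -0.51 and the other 25 a median of -1.04, beside -0.81 for all 7234 regions within 1 kb of a start. Where both libraries had an interval, at 15 regions, 12 pairs of summits lay within 32 bp of each other, and the largest distance was 160 bp. No share over the 15587 regions called in both libraries is given beside it, so this is no result about these genes.

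Taking only the highest region of each gene, 7 of the 9 were at least 2-fold lower in mutant, beside 57.7% of all genes. Higher in mutant were 0 of the 9. The highest region was chosen by the mean of both heights, and wildtype was the higher library at most regions. Such a choice favours regions high in wildtype, and no share of all genes is given beside the 0, so it is no result about these genes. The median log2 ratio of the 9 genes was -1.23, beside -1.08 for all genes, and Pdlim5 (-0.56) and Lima1 (-0.84) were the genes short of 2-fold. In the deposited gene table, which averages each gene's regions, Lima1 had means of 17.3 in mutant and 23.3 in wildtype, Pdlim5 21.5 in mutant and 31.8 in wildtype, Fhl2 22 in mutant and 38.3 in wildtype, and Pdlim2 29.3 in mutant and 64.5 in wildtype. The highest region of a gene thus leaves out the starts of Fhl2 and Lima1.

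A list of 31 further LIM domain genes of adhesions and filaments was set beside the 9, of which 26 had a region. At their highest region 14 of the 26 (53.8%) were at least 2-fold lower in mutant, beside 57.7% of all genes. Of the 26, 0 were higher, with the same limit from choosing regions by mean height. Equal heights were found for 2, Limk1 and Lpp (names chosen after their values were seen). The median log2 ratio was -1.04. Pxn, the focal adhesion scaffold paxillin, had 72 in mutant and 186 in wildtype in a region shared with Rplp0 and Gcn1l1. Csrp1, which encodes a cysteine-rich LIM protein, had 78 in mutant and 166 in wildtype. Crip1 and Crip2 share a region with 44 in mutant and 98 in wildtype, and Ldb3, a Z-disc PDZ-LIM gene, had 45 in mutant and 94 in wildtype. A CArG box was in a RefSeq window of 3 of the 24 listed genes with one (Ldb3, Nebl and Trip6, named after the search), beside 1.81% of all genes with a listed window.

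**Figure D5:**
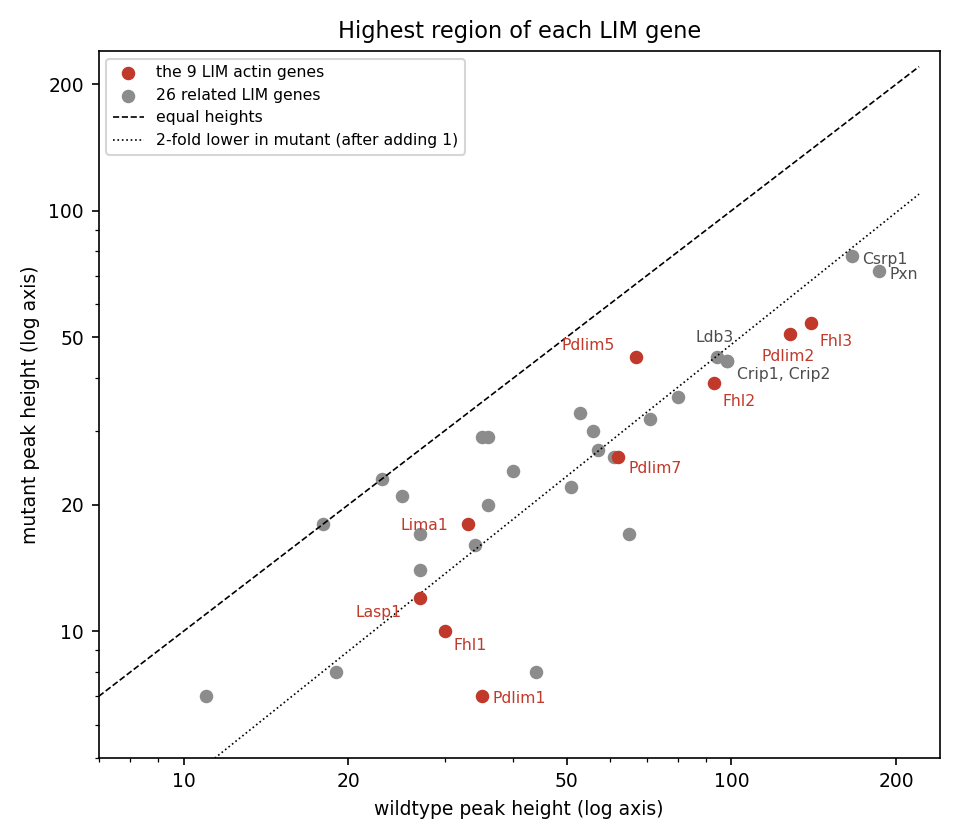
Mutant against wildtype SRF height (both axes logarithmic) at the highest region of each of the 9 LIM actin genes (red) and 26 related LIM genes (grey), with lines of equal heights and of a 2-fold lower mutant height. With regions chosen by the mean of both heights, no gene lies above the line of equal heights. Pdlim5 (45 in mutant, 67 in wildtype) lies nearest to that line among the 5 highest of the 9.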

How the data were processed

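Intervals were called by the authors in each library separately and merged into regions. The deposited values are signal, per the file headers: the peak value (called height) and the average value of each region. The submitters' processing notes name BWA and mm10. No source used here names the interval caller, its threshold, a scaling of the libraries or whether listed starts count from 0. Read totals were not used, so depth is unknown. Gene assignments, distances, calls and CpG island counts are the authors'. From these, log2 of (mutant height + 1) over (wildtype height + 1) was computed; the added 1 shrinks differences of low regions. At least 2-fold means a log2 ratio of 1 or more in size. Promoter windows and sequences are RefSeq's (GRCm38.p6), and an overlap needed 1 bp.

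Every region of the 9 genes is reported, and of the related list the 5 with the highest mean height and any of interest named as chosen later. Members and lists were chosen with earlier results of these data known. With 2 libraries, no likeness of patterns between genes was computed. The ratio and motif steps were tested on simulated data. Software was Python 3.11.15, pandas 2.3.3, scipy 1.17.1, numpy 2.4.6 and, for figures, matplotlib 3.10.9. Alternatives were scaling to a common median, average values, a pseudocount of 5 and narrower sets of regions.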

Additional observations from a re-analysis of the deposited data

How the results depend on the processing

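No paired analysis was possible because there was 1 mutant and 1 wildtype library. Alternatives for the counts of regions higher in mutant and for the CArG comparison were chosen after seeing the data. The member median of -1.0 turned to 0.009 with scaling to a common median, which by construction moves all regions up. With that scaling 11 member regions turned to higher in mutant, among them the Pdlim5 region at 142294886, at 0.03. No share of all regions is given beside the scaled counts, so they are no result about these genes. The median was -0.51 over regions within 1 kb of a start, -1.23 at the highest regions and -1.22 over the 13 regions with a height of at least 28 in 1 library; average values gave -0.67. The count at least 2-fold lower was 16, against 6 with average values, 10 with a pseudocount of 5, 1 with scaling, and, with fewer regions, 8 of 16 unshared, 1 of 5 near a start, 7 of 9 highest and 10 of 13 at height 28. The count at least 2-fold higher was 2, against 0 with average values, 1 with a pseudocount of 5 (the Fhl2 start, at 1.13), 4 with scaling, 1 near a start, 0 among the highest and 0 at height 28. The count higher in mutant was 4, against 15 with scaling, 1 near a start, 0 among the highest and 0 at height 28. At height 28, 11 of 13 regions were called in mutant and 2 genes had a region near the start; near a start, 4 of 5 were called. Of the related genes 4 were 2-fold lower with average values and 1 with scaling. The CArG difference stayed between 0.22 and 0.49 under all but the mismatch setting. Without read totals, how far depth limits low regions such as the Fhl2 start could not be computed.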
